A study of Mus musculus with 2 samples.

Results

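Retained-intron transcripts of the embryonic mouse central nervous system were taken as the transcripts that GENCODE M21 types as retained_intron and that had a TPM of at least 1 in both libraries. TPM gives a transcript's abundance relative to all transcripts of its library, after correction for length. Of 14285 retained_intron transcripts in the tables, 6650 met this rule, and they are called retained-intron transcripts below. They lay on 3387 of the 6338 genes with such a transcript, among 103639 annotated transcripts in all. The libraries came from the central nervous system of C57BL/6J embryos at embryonic day 14, as 2 biological replicates. By the labels, each was a pool of embryos of both sexes from a litter, and both carry the same donor identifier. Poly(A)+ RNA over 200 nucleotides, depleted of ribosomal RNA and with spike-ins added, was read as stranded paired ends. There was no other tissue, age, genotype or treatment, so the data hold no contrast and no test was made. TPM chose the members, and the values below are a description.

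A spliceosome that fails to remove an intron leaves it in the polyadenylated RNA, and such RNA may stay in the nucleus, be spliced later, or be exported and degraded by nonsense-mediated decay when the intron brings in a stop codon. In the developing brain, polypyrimidine-tract-binding protein is known to keep introns in some transcripts of presynaptic proteins until neurons mature, and genes of splicing factors are known for nuclear transcripts with detained introns. The annotation class is wider than that process. It holds any model that contains intronic sequence of a coding transcript of the gene, also a short model that begins or ends inside an intron.

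The libraries had total expected counts of 102727538 and 138440954 fragments. All genes of the lists of synapse (30), neuronal cytoskeleton (31) and progenitor and glial genes (19) had at least 1 TPM in both. The libraries differed in other tissues and in sex-linked genes. Skeletal muscle genes summed to 1027 TPM in replicate 1 and 186 in replicate 2, with 18 of 18 lower in replicate 2. Cartilage, bone and connective tissue genes summed to 3665 and 1269 TPM (20 of 20 lower), skin genes to 160.4 and 22.0 TPM (10 of 10 lower), and blood, vessel and immune genes to 12158 and 6216 TPM (11 of 17 lower). Without its 4 globin genes the last list summed to 380.4 and 357 TPM (7 of 13 lower). No gene of these 4 lists was at 0 in both. Xist, which is transcribed from the inactive X chromosome of female cells, had 214 TPM in replicate 1 and 0.150 in replicate 2, against the label of pooled sexes for the latter. In bulk tissue, fewer cells of a type and less RNA per cell cannot be told apart.

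The retained sequence is shown first, since it is what sets these transcripts apart from the coding transcripts of the same genes. Introns of coding transcripts that lay whole inside an exon of a retained-intron transcript are printed in capitals, with up to 6 bases of exon on each side in lower case. All are 5′ to 3′, read from the GENCODE M21 transcript sequences, and coordinates are on mm10. The set takes short introns of abundant members with different roles.
Vim-204 intron: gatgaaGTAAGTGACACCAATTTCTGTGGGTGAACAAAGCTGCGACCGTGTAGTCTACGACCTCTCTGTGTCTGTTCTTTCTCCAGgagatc
Agrn-205 intron: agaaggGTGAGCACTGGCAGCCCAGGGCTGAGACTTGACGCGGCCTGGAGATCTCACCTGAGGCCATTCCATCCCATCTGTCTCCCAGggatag
Eef1a1-203 intron: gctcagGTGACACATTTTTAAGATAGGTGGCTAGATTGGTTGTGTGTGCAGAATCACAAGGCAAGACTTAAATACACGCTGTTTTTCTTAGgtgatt
Prpf19-206 intron: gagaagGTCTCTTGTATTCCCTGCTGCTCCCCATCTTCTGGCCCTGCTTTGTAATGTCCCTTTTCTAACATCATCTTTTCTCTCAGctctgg
Rps20-201 intron: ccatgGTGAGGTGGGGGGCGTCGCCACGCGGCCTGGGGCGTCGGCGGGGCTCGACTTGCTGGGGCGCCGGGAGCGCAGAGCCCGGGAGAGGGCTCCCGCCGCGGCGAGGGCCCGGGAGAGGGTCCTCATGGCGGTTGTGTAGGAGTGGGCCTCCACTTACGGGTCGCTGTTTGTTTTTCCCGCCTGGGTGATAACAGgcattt
Each of these begins with GT and ends with AG, and each lies in the coding part of its gene. The Vim intron (chr2:13578509-13578588, plus strand) is 80 nucleotides long and is intron 3 of 8, with a first in-frame stop, TGA, at its base 25. Base positions count from 1 at the first base of the intron, and the frame is that of the coding transcript. The Agrn intron (chr4:156168821-156168902, minus strand, 82 nucleotides, intron 31 of 34) has its first stop, TGA, at base 30. The Eef1a1 intron (chr9:78479193-78479277, minus strand, 85 nucleotides, intron 6 of 7) has TAA at base 13. The Prpf19 intron (chr19:10899125-10899204, plus strand, 80 nucleotides, intron 4 of 15) has TAA at base 60. The Rps20 intron (chr4:3835292-3835483, minus strand, 192 nucleotides, intron 1 of 3) is 71.9% G and C, and its first in-frame stop, TGA, comes at base 184. The Rps20-201 model starts only 5 bases before this intron.

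Longer introns of genes of splicing regulators and of Rbm3, an RNA-binding protein, are shown by their ends, with intron bases in capitals.
Rsrp1-204 intron start: gagGTAAGTGCC
Rsrp1-204 intron end: AAAATTCTCTTCCTCTTTAGcat
Srsf5-212 intron start: cagGTTTGTTGA
Srsf5-212 intron end: CATAATTGTCTTGTGTTAAGgat
Srsf6-204 intron start: gcaGTGAGTCCT
Srsf6-204 intron end: TTGATGTTTCAATTTGAAAGtga
Rbm3-209 intron start: gagGTGAGGCCT
Rbm3-209 intron end: TGTCTCCTTCCCATACCTAGtcc
The Rsrp1 intron (chr4:134925433-134926734, plus strand) spans 1302 nucleotides with a TGA at base 49, and the Srsf5 intron (chr12:80947866-80949094, plus strand) spans 1229 with a TGA at base 7. The Srsf6 intron (chr2:162932143-162932814, plus strand) spans 672 nucleotides with a TAG at base 186, and the Rbm3 intron (chrX:8143948-8144572, minus strand) spans 625 with a TGA at base 109. All 4 are bounded by GT and AG, and all 4 bring a stop into the reading frame.

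Many members hold no whole intron, and a second set shows how short the part outside the coding exons can be. Bases in capitals lie outside the exons of the gene's coding transcripts, and the 15 bases in lower case are the neighbouring exon. For longer parts, the 60 bases next to the exon are shown.
Rps9-206 end of model: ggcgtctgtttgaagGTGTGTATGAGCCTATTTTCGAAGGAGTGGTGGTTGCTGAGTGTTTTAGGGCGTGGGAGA
Dync1h1-204 end of model: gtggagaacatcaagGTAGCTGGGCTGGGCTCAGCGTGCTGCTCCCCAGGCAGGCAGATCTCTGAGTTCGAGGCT
Dynll1-204 end of model: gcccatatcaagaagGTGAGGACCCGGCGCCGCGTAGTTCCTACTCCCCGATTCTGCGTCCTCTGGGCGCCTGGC
Cdk4-209 start of model: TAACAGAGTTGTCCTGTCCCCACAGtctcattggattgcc
Vim-203 start of model: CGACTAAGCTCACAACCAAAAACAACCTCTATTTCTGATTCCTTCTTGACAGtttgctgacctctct
Eif2b2-206 end of model: ggaggagtatggcagGTCAAAC
Rps9-206 runs 109 bases past a coding exon on chromosome 7, Dync1h1-204 runs 127 bases past one on chromosome 12, and Dynll1-204 runs 237 bases past one on chromosome 5. Each of these reads through a GT at the exon's edge. Cdk4-209 starts 25 bases before a coding exon on chromosome 10 and Vim-203 starts 52 bases before one on chromosome 2, and both cross an AG. Eif2b2-206 has 7 such bases at its end.

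Retained-intron transcripts were mostly minor products of their genes. The share of retained_intron transcripts that reached 1 TPM in both libraries was 46.6%, beside 45.2% of protein_coding transcripts (21452 of 47459), 33.2% of nonsense_mediated_decay transcripts and 33.4% of all annotated transcripts. Among genes of at least 1 TPM in both, the shares were 50.9% of 13066 retained_intron and 60.8% of 35282 protein_coding transcripts. The rule fixed these shares, and nothing is read from them. Members took 4.29% and 4.21% of the expected counts of annotated transcripts in replicates 1 and 2 (4.25% ± 0.0517, SD, n = 2), and 6.71% and 6.52% of the TPM. Their median TPM was 4.25 in replicate 1 and 4.04 in replicate 2 (4.14 ± 0.148, SD, n = 2). The middle 50% of members had mean TPM of 2.22 to 8.90, 1466 had at least 10 and 52 at least 100. Members were short, with a median length of 807 nucleotides, against 2610.0 for protein_coding transcripts at the same TPM threshold, and 4251 were under 1000 nucleotides.

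IsoPct, the deposited percent of the host gene's TPM in a transcript, had a median over members of 7.78 in replicate 1 and 7.39 in replicate 2 (7.58 ± 0.269, SD, n = 2). The same median was 48.8 ± 0.269 for protein_coding transcripts, 10.2 ± 0.180 for nonsense_mediated_decay transcripts (SD, n = 2 for each), and 10.1 and 9.96 in the 2 libraries for processed_transcript transcripts. Members thus had the lowest median of the 4 types. In 4003 members (60.2%) mean IsoPct was under 10, and in 113 (1.70%) it was at least 50. The median of the members' 2-replicate mean was 7.68% by TPM but 3.07% as a percent of the gene's expected counts, which are not divided by length. On genes, 1710 had a single member, 206 had at least 5, and Gas5, a non-coding host of small nucleolar RNAs, had the most with 17.

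**Figure D1:**
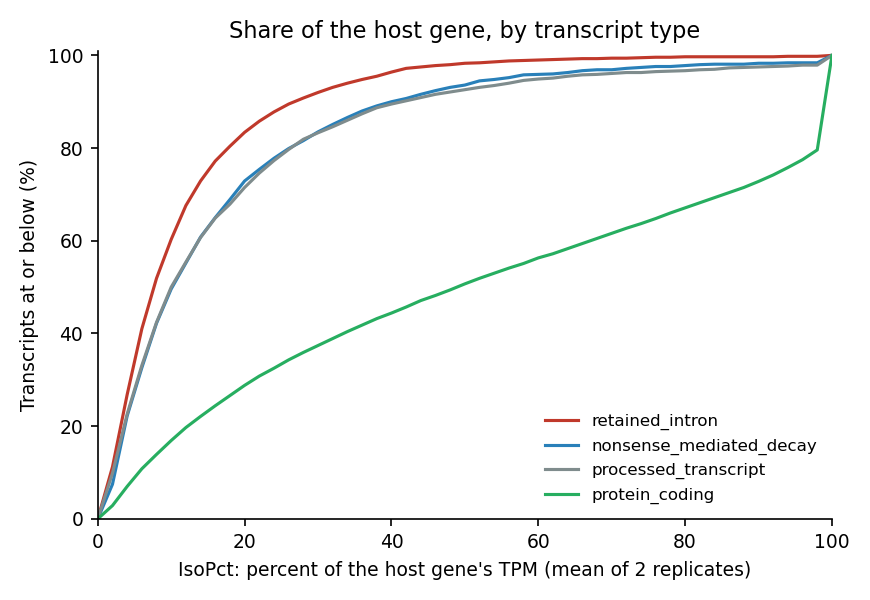
Cumulative share of transcripts (vertical axis, percent) at or below each IsoPct (horizontal axis, percent of the host gene's TPM, mean of 2 replicates), for transcripts of at least 1 TPM in both libraries, one line per GENCODE M21 type. The retained_intron line rises fastest, with 60.2% of its 6650 transcripts under 10, and the protein_coding line slowest, with a median of 48.8.

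The most abundant members came from ribosomal, globin and splicing-regulator genes. Rps9-206 (chr7:3704041-3704877, plus strand), from a gene of the small ribosomal subunit, had 1074 TPM in replicate 1 and 837 in replicate 2 (956 ± 168, SD, n = 2), which was 47.1% and 40.8% of the gene. Rps20-201 (chr4:3834473-3835488, minus strand), from another small-subunit gene, had 431 and 359 TPM (395 ± 50.9, SD, n = 2), or 73.8% and 71.1% of its gene. Rsrp1-204 (chr4:134923592-134927671, plus strand), from a gene of an arginine- and serine-rich protein, had 363 and 386 TPM (375 ± 15.8, SD, n = 2), or 63.9% and 64.5%. The Rsrp1 value was slightly higher in replicate 2, and both ribosomal values were lower there. Reads of ribosomal protein genes can also fit processed copies elsewhere in the genome, so these levels are uncertain.

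Globin members stood apart by their spread between libraries. Hbb-bs-202 had 1263 TPM in replicate 1 and 423 in replicate 2 (843 ± 594, SD, n = 2), and Hba-a1-202 had 847 and 416 (632 ± 305, SD, n = 2). Both genes encode adult-type hemoglobin chains of red cells. The log2 ratio of replicate 2 over replicate 1 was -1.58 for Hbb-bs-202 beside -1.01 for its gene, and its IsoPct was 33.1 and 22.3. For Hba-a1-202 the ratio was -1.03 beside -0.99, and its IsoPct was 39.4 and 38.3, so that this member differed about as much as its gene and the former by more. The globin genes made up most of the blood list, and its other 13 genes, given above, differed little in sum. Near-identical globin copies can share reads, so the split between them is uncertain.

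Members from genes of the cell cycle, protein synthesis, the cytoskeleton and RNA export followed. Cdk4-209, from the gene of a G1 cyclin-dependent kinase, had 274 and 355 TPM, and Btf3-203, from the gene of a subunit of the nascent polypeptide-associated complex, had 277 and 330.4. Vim-203, from the gene of vimentin, the intermediate filament of radial glia, had 289 and 314 TPM, or 31.7% and 32.7% of the gene. Ddx39b-204, from the gene of an RNA helicase of spliceosome assembly and mRNA export, had 283 and 313 TPM. Dynll1-204 (dynein light chain) had 269 and 315 TPM, and Atp5a1-203 (alpha subunit of mitochondrial ATP synthase) 219 and 274. These 6 were all higher in replicate 2, with log2 ratios from 0.12 for Vim-203 to 0.37 for Cdk4-209. Few of their bases tell some of them from coding transcripts: 5.34% of Cdk4-209, 9.31% of Btf3-203 and 9.72% of Vim-203 lay outside coding exons, against 46.8% of Ddx39b-204.

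**Figure D2:**
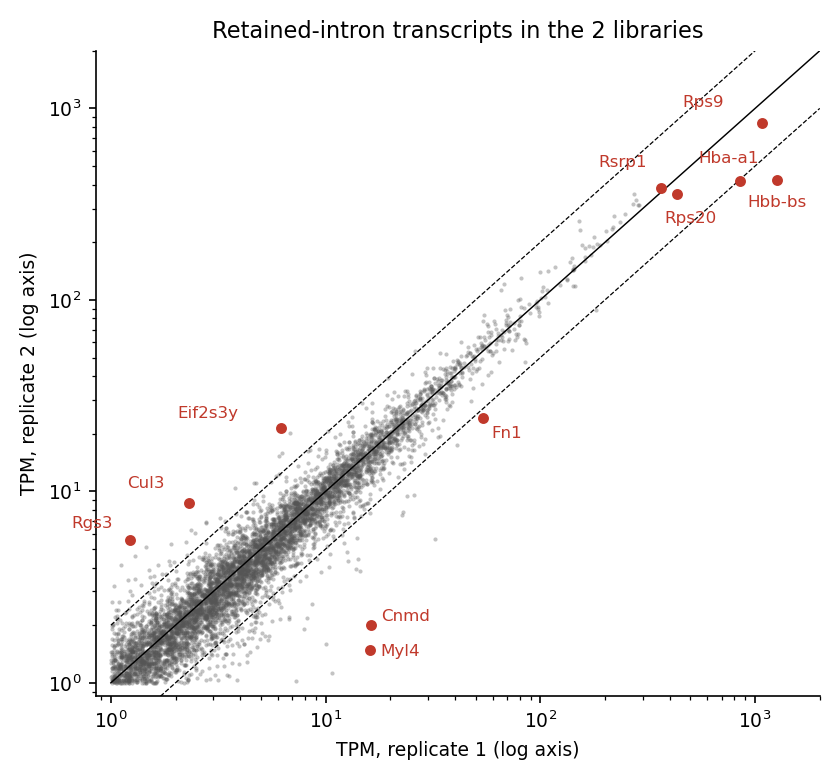
TPM of each of the 6650 retained-intron transcripts in replicate 1 (horizontal, log axis) and replicate 2 (vertical, log axis), 1 point per transcript. The solid line marks equal values and the dashed lines a 2-fold difference; named points in red are described in the text, with Hbb-bs at 1263 and 423 TPM far to the right and Myl4 and Cnmd below the lower line.

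A retained-intron transcript was the most abundant transcript of its gene in a minority of genes. Of 5495 genes with such a transcript and at least 1 TPM in both libraries, 356 (6.48%) were led by one in both, and 4529 by a protein_coding transcript. By the highest expected count in place of TPM the number was 237, and by the summed TPM of the types it was 536. A member led in 336 of the 356, and in 113 genes the leader had over 50% of the gene's TPM in both libraries. Some of the latter, such as Pagr1a and Carmil2, had 100% in the leader, with no TPM in another transcript of the gene. The led genes had a median TPM of 33.1, beside 30.1 for all genes with a retained_intron transcript, and 268 of them had at least 10 TPM. The leading members had a median IsoPct of 41.3 in replicate 1 and 41.8 in replicate 2. Against the highest protein_coding transcript of the gene, the leader's TPM had a median ratio of 1.81 and 1.76 in the 322 led genes with such a transcript, and it was at least 2 times as high in both libraries in 120.

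The most abundant led genes covered signalling, transport and RNA processing. Cdk4 had 907 and 1151 TPM in replicates 1 and 2, and its leader, Cdk4-209, had 30.2% and 30.9% of it. Plppr3, a neuronal phospholipid phosphatase-related membrane protein, had 637 and 716 TPM, and Plppr3-206 had 34.1% and 33.5%. Gnb1, a beta subunit of heterotrimeric G proteins, had 592 and 659 TPM, with 39.5% and 38.6% in Gnb1-206. In each of these genes, at most 40% lay in the leader, so that leading did not mean holding most of the gene's TPM. Agrn, the heparan sulfate proteoglycan agrin, had 387 and 388 TPM with 48.7% and 49.9% in Agrn-205. Anp32a, an acidic nuclear phosphoprotein, had 401 and 463 TPM with 44.1% and 45.9% in Anp32a-209, and Rbm3, a cold-inducible RNA-binding protein, had 386 and 450.4 TPM with 26.2% and 24.7% in Rbm3-209. The percents of a gene's leader differed by under 5 points between the libraries in all 12 of the most abundant led genes, and Rps20-201 and Rsrp1-204 alone held over 50%. The highest coding transcript of Rps20 had 129 and 137 TPM, that of Rsrp1 155 and 153, and that of Agrn 72.7 and 66.8, in each case below the leader in both libraries.

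Leaders were longer than other members and more like coding transcripts. Their median length was 1263 nucleotides and the median share of their bases outside coding exons was 15.8%, beside 807 nucleotides and 36.6% over all members with a value. In 102 of 296 leaders with a value, under 10% of bases lay outside coding exons. Of the 336 leading members, 132 (39.3%) started outside coding exons, 111 (33.0%) held a whole intron and 31 (9.23%) ended outside coding exons. The mm9 quantification of the same libraries, with Ensembl release 65 models, held the leading transcript of 286 led genes, and the same transcript led in both of its RPKM fields in 132. Rps20, Srsf1, Anp32a, Rbm3, Agrn and Plppr3 were among them, and Cdk4, Dynll1, Rsrp1 and Srsf11 were not.

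Host genes differed widely in how much of their TPM lay in retained_intron transcripts of all kinds, summed over the gene. Over all 5495 genes the median was 11.1% in replicate 1 and 10.5% in replicate 2, and 61.6% of the genes (3387) had a member. The lists below hold other genes of each pathway and were chosen with earlier results of these data known. Each list's median, taken over its genes with a retained_intron transcript and the mean of both libraries, stands beside 10.9% for all genes, and no test of the lists was made. All these percents are of TPM, in which short models weigh more than in counts, and the lists were not repeated with expected counts.

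Splicing regulators and the kinases that act on them lay above that level. Of 18 SR and SR-related genes, 17 had a member (46 in all), 15 lay above the overall median, 4 were led by a retained-intron transcript, and the list's median was 24.1%. Rsrp1 had 63.9% and 64.5% of its TPM in such transcripts in replicates 1 and 2. Srsf11 had 57.2% and 54.4%, spread over 6 members, and Luc7l, a homologue of a yeast U1 component, had 46.5% and 46.0%. At the other end of the list, Srsf4 had 5.77% and 4.67% and Luc7l3 had 1.23% and 0.72%. Srsf6-204 had 140.1 and 165 TPM, or 37.5% and 41.4% of its gene, and held 3 introns of coding transcripts whole. Those of 672 and 1283 nucleotides share a start and are overlapping alternatives of the same stretch. Srsf5-212 had 173 and 172 TPM, or 26.9% and 28.4%, a difference between libraries that was within the deposited intervals of 169 to 174 and 168 to 173. Srsf1-203 had 117 and 149 TPM, or 25.5% and 27.1%, and its 378-nucleotide intron is exon in another coding transcript, so that none of its bases lay outside coding exons.

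Kinases and cyclins of splicing speckles, which phosphorylate SR proteins or partner such kinases, had the highest list median, 39.7% over 7 genes, of which 6 had members (29 in all). Ccnl2, cyclin L2, had 65.3% and 65.4% of its TPM in retained_intron transcripts, and Ccnl2-205 (chr4:155812501-155824543, plus strand) had 95.4 and 91.2 TPM. The Cdc2-like kinases Clk4, Clk1 and Clk2 had 42.7% and 42.2%, 42.1% and 39.4%, and 39.7% and 36.4%. Ccnl1 had 42.0% and 37.5% over 8 members, and Srpk1 had 27.6% and 28.7%. Dyrk1a alone had no member and 2.07% and 3.07%. The 6 genes with members thus lay between 27.6% and 65.4% in every library.

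Other RNA-binding and RNA-processing genes were mixed. The hnRNP list had a median of 12.5% over 18 genes, from Tial1 with 56.1% and 54.1% and Ptbp1 with 55.4% and 50.6% to Taf15 with 0.35% and 0.28%. Ptbp1, which represses neuronal exons in progenitors, was led by Ptbp1-214 (70.4 and 60.7 TPM). That model held no base outside coding exons. Core spliceosome genes had a median of 17.3% over 19 genes with 41 members, and none was led by one. Prpf40b had 46.8% and 45.4% and Sf3b1, the U2 component that contacts the branch site, had 26.3% and 26.6%, while Prpf8, the largest U5 protein, had 0.46% and 0.71%. Sf1-210, from the gene of the branch point binding protein, had 37.8 and 27.9 TPM. The DEAD-box and DEAH-box helicase list had a median of 14.4% over 9 genes, with Ddx39-203 at 16.0 and 14.2 TPM.

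Genes of export, decay and 3′ end formation followed. The list drawn up for mRNA export and nuclear retention had a median of 15.5% over 12 genes, all with members (27). Nup153, a nucleoporin of the nuclear basket, had 52.0% and 48.8%, and Nxf1, the main mRNA export receptor, had 5.6% and 6.6%. Paxbp1, for which a part in export was not checked, also stood in the list and had 52.4% and 52.2%. Nonsense-mediated decay and exosome genes had a median of 11.3% over 10 genes, with Smg5 at 43.8% and 42.4% and Smg1, the kinase that phosphorylates Upf1, at 1.62% and 1.57%. Genes of 3′ end formation had a median of 10.6% over 10 genes. Cpsf4, a subunit of the cleavage and polyadenylation factor, was led by Cpsf4-203, which had 29.1 and 27.9 TPM, or 42.6% and 37.6% of the gene.

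Genes of neurons and progenitors lay on both sides. Synapse genes had a median of 6.76% over 17 genes, 4 of them above the overall median. Gria2, an AMPA receptor subunit, had 36.8% and 37.5% and Dnm1, dynamin 1, had 25.4% and 27.7%, while Snap25, a SNARE of synaptic vesicles, had 0.26% and 0.27% and no member. Vamp2, another SNARE and a known target of polypyrimidine-tract-binding protein, had 7.52% and 6.98%, and its members Vamp2-203 and Vamp2-205 had 7.60 and 7.66 TPM and 8.96 and 6.01 TPM. Sv2a, a synaptic vesicle protein, had 5.08% and 4.98%. Cytoskeleton and axon genes had a median of 8.90% over 14 genes. Dync1h1, the dynein heavy chain, stood apart in that list with 79.2% and 80.7%, and Dync1h1-204 alone had 161 and 187 TPM, or 59.7% and 61.2%. That model is 427 nucleotides long with 29.7% of its bases outside coding exons, and it had 2339 and 3767 expected counts. Its percent is one of TPM, in which a short model weighs more than in counts. L1cam, a cell adhesion molecule of axons, had 47.7% and 53.0%, and Mapt, the microtubule-associated protein tau, had 0.20% and 0.18%.

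Progenitor and glial genes had a median of 18.8% over 11 genes, 8 of them above the overall median. Vim had 49.6% and 50.3%, Hes6 had 45.0% and 43.0%, Hes1, a Notch target that keeps progenitors dividing, had 29.5% and 36.5%, and Pax6, a progenitor transcription factor, had 21.4% and 22.2%. Nes, nestin, had 3.59% and 4.81%, and Notch1 had 1.16% and 1.05% with no member. Cell cycle and replication genes had a median of 17.1% over 19 genes, with Rfc5, a clamp loader subunit, at 56.1% and 56.0%, Cdk1 at 49.9% and 50.1%, and Ccna2, cyclin A2, at 4.30% and 2.52%. Chromatin genes had a median of 17.3% over 35 genes, 21 above the overall median. Chd3 and Chd8, chromatin remodelers, had 55.6% in both libraries and 52.6% and 52.3%. Chd3-205 had 70.6 and 73.9 TPM and Ehmt2-205, from the gene of a histone H3 methyltransferase, had 53.4 and 58.0 TPM.

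Ribosomal protein genes had the lowest median of the lists with 7 or more genes, 3.41% over 26 genes, although all 26 had a member (70 in all). Rps20 (77.9% and 72.9%), Rpl5 (57.8% and 60.4%) and Rps9 (47.7% and 41.4%) lay highest, Rpl12 (17.4% and 13.0%) and Rpl10a (12.1% and 11.0%) were the other two above the overall median, and Rplp0 had 0.27% and 0.11%. Respiratory chain genes had a median of 6.30% over 17 genes, all with members, with Ndufa10 at 34.5% and 37.0% and Cox6a1 at 0.67% and 0.59%. Translation genes had a median of 10.9% over 16 genes. Eef1a1, elongation factor 1 alpha, had 6388 and 6414 TPM, and its member Eef1a1-203 had 84.9 and 47.3 TPM, which was 1.33% and 0.740% of the gene. On mm10, a gene of very high level therefore reached the threshold with a percent far under the median. On mm9, Eef1a1-203 had 20.8% and 22.2% of the gene's RPKM in the 2 fields, above the members' mm9 median of 8.20%. The percent of this member is thus uncertain.

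Hosts of small nucleolar RNAs, which are cut from introns, had a median of 24.1% over 10 genes, all with members (44 in all). Ncl, nucleolin, had 86.4% and 82.4%, and Ncl-202 had 75.2 and 70.5 TPM, or 51.0% and 56.2%. Gas5 had 48.7% and 44.9% over its 17 members, the highest of them Gas5-201 with 205 and 202 TPM. Snhg5, another non-coding host, had 54.7% and 52.7%. Nnat, the imprinted neuronatin gene, had 3.77% and 4.14%, with Nnat-204 at 155 and 193 TPM. Ogt, the O-GlcNAc transferase, whose gene is known for a detained intron, had 23.4% and 23.0%, and Ogt-204 (chrX:101640108-101654586, plus strand) had 62.0 and 70.4 TPM, or 18.3% in both libraries. Of the bases of Ogt-204, 77.0% lay outside coding exons.

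**Figure D3:**
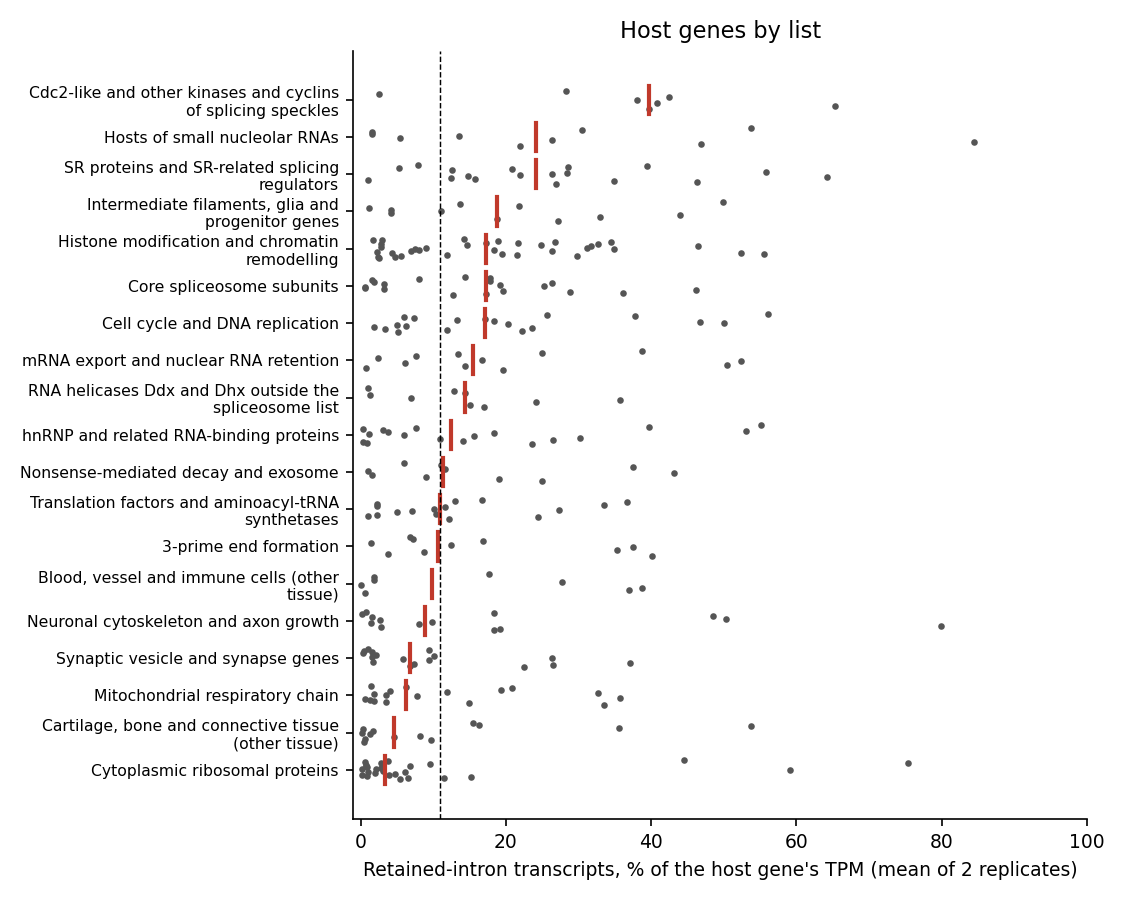
Percent of each host gene's TPM in retained_intron transcripts (horizontal axis, mean of 2 replicates), 1 point per gene with at least 1 TPM in both libraries, grouped by list; lists of fewer than 7 such genes are left out. Red bars are list medians, from 39.7% for kinases and cyclins of splicing speckles to 3.41% for cytoplasmic ribosomal proteins, and the dashed line is the median of all 5495 genes, 10.9%.

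The annotated structures of the members varied. Of the 6650, 2441 (36.7%) held at least 1 intron of a coding transcript whole inside an exon, 1880 (28.3%) held none but started outside the coding exons, 1481 (22.3%) ended outside them, and 478 (7.19%) did both. Members that started outside coding exons had a median IsoPct of 9.88, those with a whole intron 7.83, those that ended outside 5.99 and those that did both 5.64. A further 75 had neither end outside coding exons, 74 lay on genes without a coding transcript, and 221 had another model or gene in M21 than in the tables and were left out of structure counts. Over 6355 members with a value, the median share of bases outside coding exons was 36.6%, and 2040 had at least 50%.

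The introns counted as retained were short, and the way of counting favours short ones. An intron had to lie whole inside 1 exon of a member, and members with a whole intron had a median length of 1212 nucleotides. Longer introns were thus more likely to be left out, and lengths were not compared within that limit. Overlapping alternatives of 1 stretch counted as different introns. In all, 3467 different introns of coding transcripts on 1568 genes lay whole inside a member, with a median length of 232 nucleotides (middle 50%, 109.5 to 536). The 47112 other introns had a median of 1153 nucleotides (middle 50%, 381 to 2912). They came from coding transcripts of the host genes of all members in the structure counts, also of genes without a whole retained intron. Introns that lay whole inside a retained_intron transcript that was no member were left out of them. Introns of up to 300 nucleotides made up 58.5% of the retained and 21.3% of the other introns. Introns in retained_intron transcripts that were no members (1902) were longer than those of members, with a median of 307. The longest retained intron was 8856 nucleotides. Most members with a whole intron had 1 (1605), 328 had at least 3, and the most in a member was 19, counted over overlapping alternatives.

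**Figure D4:**
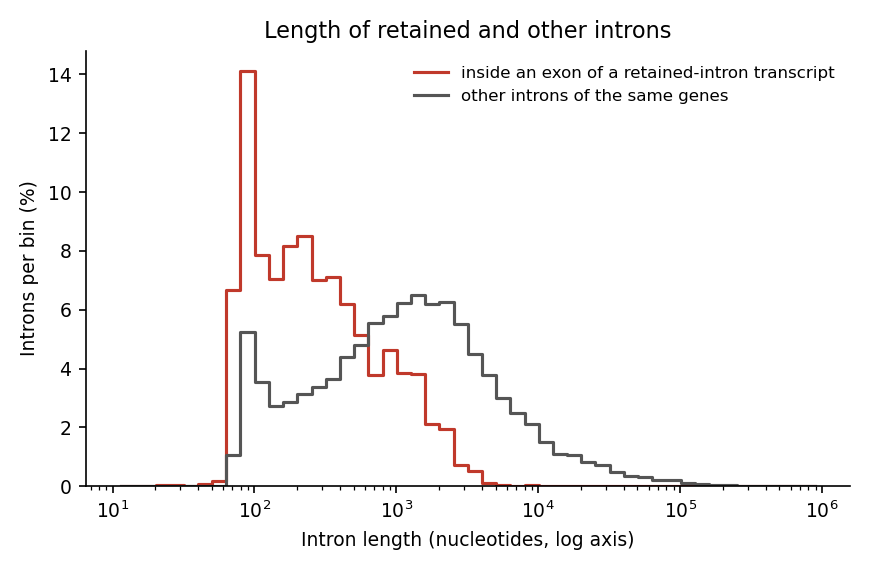
Distribution of intron length (horizontal log axis, nucleotides) as percent of introns per bin, for 3467 introns inside an exon of a retained-intron transcript (red) and 47112 other introns (grey). The other introns are of coding transcripts of the host genes of all members in the structure counts, also of genes without a whole retained intron. They leave out introns that lie whole inside a retained_intron transcript that is no member. The retained introns lie to the left, with a median of 232 against 1153 nucleotides, and their highest bin, from 79 to 100 nucleotides, holds 14.1% of them.

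Most retained introns lay in coding sequence and carried a stop. By position, 3119 lay within the coding part of a coding transcript, 199 in the 5′ UTR, 31 in the 3′ UTR and 118 in transcripts without a complete coding sequence. Of the 3119, 2747 (88.1%) held an in-frame stop, 278 (8.91%) held none but shifted the frame, and 94 (3.01%) kept the frame open. The same shares in introns of non-members were 89.1%, 8.06% and 2.88%, so members and non-members lay about 1 point apart or less. By order, 10.5% of the retained introns were the first and 9.26% the last of their transcript, beside 10.8% and 6.94% in non-members. The median GC content was 52.6% (middle 50%, 46.3 to 57.8), against 50% for introns of non-members and 54.3% for the remaining sequence of the same members. GC content of the other introns was not analysed here.

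Splice-site letters were mostly the common ones. GT and AG bounded 3398 retained introns (98.0%), GC and AG 38 (1.10%), and AT and AC 6 (0.173%). An exact start of GTATCCTT or ATATCCTT, searched on the transcribed strand as the letters known for the minor, U12-type spliceosome, stood in 17 retained introns (0.490%) and in 5 introns of non-members (0.263%). The ends of 3 of these, chosen after their values were seen, show both kinds of start.
Rfc5 intron start: aaaGTATCCTTTTGG
Rfc5 intron end: CTCCCCTTAGCTGCTCCTCCCCAGaca
Prim1 intron start: agaATATCCTTTCCT
Prim1 intron end: CCATGCTCCTTAATGAAGCATCACcaa
Sms intron start: gagATATCCTTTACT
Sms intron end: AATTTTCCTTAAACTGTTTCGGACatt
The Rfc5 transcript with this 422-nucleotide intron (chr5:117381914-117382335, minus strand) had 10.11 and 11.59 TPM, or 35.39% and 34.80% of the gene. The Prim1 transcript, from the gene of the catalytic primase subunit, had 4.15 and 4.94 TPM (12.71% and 12.73%), and that of Sms, spermine synthase, had 3.95 and 4.30 TPM (5.08% and 4.60%). The Prim1 and Sms introns begin with AT and end with AC. A match of letters is a description and does not show which spliceosome acts.

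A small RNA gene lay inside 43 retained introns (1.24%), beside 4 introns of non-members (0.210%). Some small RNAs, such as Snord15b in Rps3, were counted in more than 1 overlapping intron. The TPM rule separates members from non-members, and the share in the other introns of the host genes was not counted. Nothing is therefore read from the difference. The members named here were chosen after their values were seen. The Hspa8 member, from the gene of a constitutive heat shock chaperone, held introns with Snord14c, Snord14d and Snord14e and had 11.88 and 8.26 TPM, or 0.50% and 0.26% of the gene. The Eif4a2 member with Snora81 had 24.26 and 20.83 TPM, or 4.27% and 3.85%. A member of Gfra4, the gene of a receptor of the GDNF family, held an intron with Mir6973b and had 14.81 and 14.28 TPM, or 40.70% and 42.89%, a far larger part of its gene.

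The mm9 tables gave a second view of the same libraries, with other gene models. They do not tell which of their 2 fields is which replicate, so no direction is read between fields. Of the 6650 members, 5781 were in the mm9 transcript table, 5691 had RPKM above 0 in both fields and 49 were at 0 in both. Their median percent of the gene's RPKM was 8.20, beside an IsoPct of 7.72 for the same members, and 4718 (81.6%) lay within 10 points. Across these transcripts the 2 percents had a Pearson r of 0.641 and a Spearman rho of 0.621. The points share libraries and genes, so this is a description. Single members could differ widely: Rps9-206 had 8.24% and 7.81% on mm9 against 47.1% and 40.8% on mm10, and Rsrp1-204 had 30.1% and 24.0% against 63.9% and 64.5%. Agrn-205 was close on both builds, with 47.4% and 45.1% on mm9, and so was Dync1h1-204, with 65.8% and 71.7%.

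Spliced reads crossed nearly all retained introns. Of 3079 retained introns placed on mm9, 2951 (95.8%) had junction reads across them, beside 94.9% of 18640 other introns of those genes. Introns inside retained_intron transcripts that were no members were left out here too. The median was 601 junction reads for retained and 552 for other introns. The Rps20 intron had 16713 junction reads, the Rsrp1 intron 868, the Agrn intron 4754 and the Vim intron 13956. Deposited contigs, which are stretches of joined reads, covered at least 50% of the length of 3047 retained introns (99.0%) and 96.2% of the others, and the whole length of 98.4% and 74.8%. The groups differed in length, and cover was not compared at matched length.

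Between the libraries, members differed about as much as other transcripts. On the log2(TPM + 0.1) scale, the median ratio of replicate 2 over replicate 1 was -0.05 over members, 0.01 over all 34568 transcripts of at least 1 TPM in both and 0.02 over protein_coding transcripts. The median size of the ratio was 0.207, 0.192 and 0.178. In replicate 2, 122 members (1.83%) were lower by 2-fold or more and 48 (0.722%) were higher by as much, beside 2.55% and 1.05% of all transcripts and 2.90% and 0.909% of protein_coding transcripts. With a pseudocount of 1 TPM, 51 were lower and 20 higher, and with at least 50 expected counts in both libraries 85 were lower and 27 higher. The deposited intervals did not overlap in 88 of the 122 and 24 of the 48, beside 1077 of all 6650 members. These groups were picked for a large ratio, and the share over all transcripts was not counted. Nothing is therefore read from these counts. Across members, log2 TPM had a Pearson r of 0.962 between the libraries and IsoPct one of 0.980, over 6650 transcripts that share genes and libraries. IsoPct differed by a median of 0.850 points and by at least 10 points in 49 members.

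The spread was smaller at greater depth and with more sequence outside coding exons. The median size of the log2 ratio was 0.280 in 546 members with a mean expected count under 50 and 0.148 in 1077 with at least 1000. In 291 members with under 50 bases outside coding exons it was 0.345, with 28 (9.62%) at least 2-fold apart. In 1852 members with 50 to 199 such bases it was 0.263 with 74 (4.0%), in 3200 with 200 to 999 it was 0.197 with 49 (1.53%), and in 1012 with 1000 or more it was 0.154 with 9 (0.889%). The first 3 groups had similar median counts of 206, 170.3 and 216, and the last had 635. The mean mm9 percent and the IsoPct also lay farther apart with fewer such bases, at a median of 6.33, 4.73, 2.52 and 2.20 points in the 4 groups.

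Members that were lowest in replicate 2 came from muscle and connective tissue genes and were low together with their host genes. Myl4-204, from the gene of a myosin light chain, had 16.1 TPM in replicate 1 and 1.48 in replicate 2, a log2 ratio of -3.36 beside -4.40 for the gene. Postn-208, from the gene of periostin, a matrix protein, had 10.8 and 1.12 TPM, and Postn-207 had a log2 ratio of -2.58, beside -2.36 for the gene. Cnmd-202, from the gene of chondromodulin, had 16.2 and 2.01 TPM, and Matn4-205, from that of a matrilin, had 7.30 and 1.02, with gene ratios of -3.14 and -2.95. Fn1-202, from the fibronectin gene, had 54.0 and 24.3 TPM at an IsoPct of 25.2 and 25.3. The muscle list was lower in replicate 2 in all its genes, as given above. The cartilage, bone and connective tissue list without Fn1 and Postn summed to 3299 and 1143 TPM, with 18 of 18 lower, and the part of these tissues in these members was not tested. Of the 122 members at least 2-fold lower, 43 had a host gene at least 2-fold lower. That share was not counted over all transcripts.

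Members that were highest in replicate 2 mostly did not follow their genes. Rgs3-214, from the gene of a regulator of G protein signalling, had 1.23 TPM in replicate 1 and 5.57 in replicate 2, a log2 ratio of 2.09 beside -0.18 for the gene. Cul3-204, from the gene of a ubiquitin ligase scaffold, had 2.32 and 8.73 TPM (1.87 beside 0.33), Tubgcp4-211, from that of a gamma-tubulin complex protein, 1.29 and 4.61 (1.76 beside 0.10), and Eif2b2-206, from that of a translation initiation factor subunit, 6.79 and 20.1 (1.55 beside 0.19). In these 4, between 0 and 3.38% of the bases lay outside coding exons. The deposited intervals of the 2 libraries overlapped for Cul3-204 (up to 5.87 and from 5.12 TPM) and Tubgcp4-211 (up to 2.53 and from 1.01 TPM), and not for Rgs3-214 or Eif2b2-206. On mm9, Rgs3-214 had 0% of the gene's RPKM in both fields, against an IsoPct of 1.97 and 10.1 on mm10. Tubgcp4-211 had 0.568% and 0.851% on mm9, against 2.94 and 9.82. Cul3-204 had 16.0% and 15.4%, against 4.25 and 12.8, and Eif2b2-206 had 11.1% and 13.0%, against 6.65 and 17.3. Eif2s3y-205, from a Y-linked gene of a translation initiation factor, was different, with 6.23 and 21.4 TPM and a log2 ratio of 1.77 beside 1.51 for the gene. The Y-linked genes Ddx3y, Uty and Kdm5d had ratios of 1.07, 1.19 and 1.39. Of the 48 members at least 2-fold higher, 5 had a host gene at least 2-fold higher. The same share over all transcripts was not counted, so neither count is read as particular to retained-intron transcripts.

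**Figure D5:**
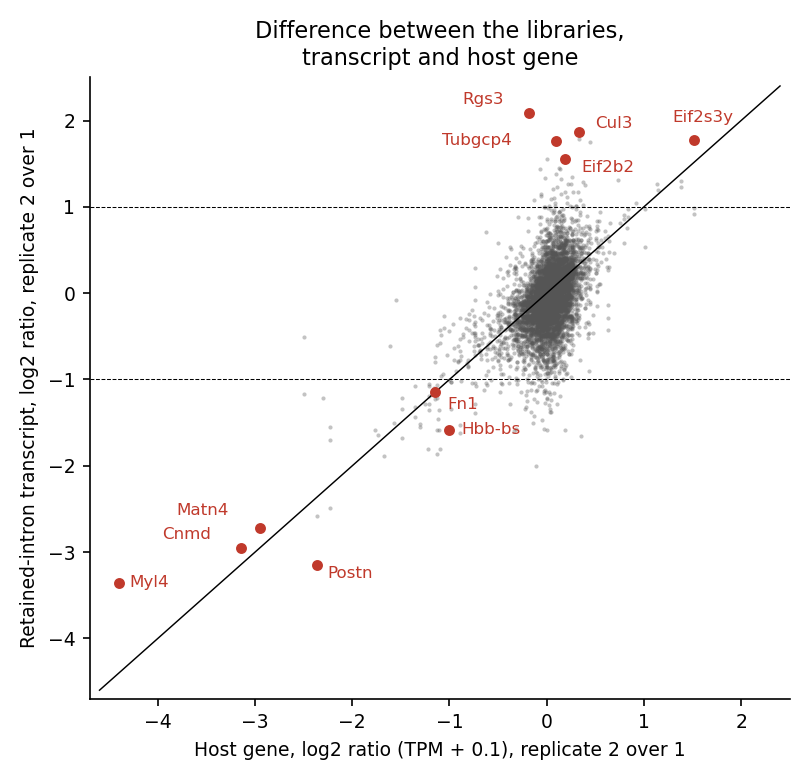
Log2 ratio of replicate 2 over replicate 1 on the log2(TPM + 0.1) scale for each retained-intron transcript (vertical axis) and its host gene (horizontal axis), 1 point per transcript. The solid line marks equal ratios and the dashed lines a 2-fold difference of the transcript; Myl4, Cnmd and Matn4 lie far to the lower left, with low host genes, and Rgs3, Cul3, Tubgcp4 and Eif2b2 lie above the upper dashed line with host genes near 0.

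The threshold cut through a continuous range. At the lower of their 2 values, Lsm3-203, Hipk1-204 and Dedd-207 were just inside with 1.42 and 1.00, 1.45 and 1.00, and 1.10 and 1.00 TPM, and Kcnt1-202, Uqcc1-205 and Bcl9-202 just outside with 1.43 and 0.990, 1.35 and 0.990, and 2.44 and 0.990 TPM. In replicate 1 alone, 624 retained_intron transcripts reached 1 TPM, and in replicate 2 alone 340 did. In 55 transcripts the lower value was at most 0.01 above the threshold, and 946 were at 0 in both. The lower bound of the deposited interval was at least 1 TPM in both libraries in 5728 members (86.1%).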

How the data were processed

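RNA-seq libraries of 1 group (n = 2) were described. The mm10 tables use GENCODE M4, per the deposited description. The authors' expected counts are fractional read assignments to each transcript, estimated by a quantifier that was not given in the sources used here, nor was the level of its interval. The deposited tables also give TPM, FPKM and IsoPct, a percent of the gene's TPM. For mm9 the deposited tables give RPKM of Ensembl release 65 transcripts, junction read counts and contigs; their 2 fields are not matched to replicates. Deposited TPM and FPKM divide by effective length, so short models weigh more in TPM than in counts.

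Types, structures and sequences were looked up in GENCODE M21, also on mm10, by transcript identifier without version (101510 of 103639 transcripts matched; 2129 were not). An intron counted as retained where a protein_coding transcript's intron on the same strand lay whole in 1 exon of the member; on mm9 introns under 30 nucleotides were left out. Members, lists and alternatives were chosen with earlier results of these data known. Named members were the 12 highest by TPM, the leaders of the 12 highest led genes, 2 from each of 24 lists, 5 for each direction of the ratio at a mean expected count of at least 100, and 3 on each side of the threshold. Not every member that this rule takes is reported here. Ratios used a pseudocount of 0.1 TPM. TMM factors came from edgeR 4.0.16 in R 4.3.3 on rounded expected counts. Only the 2-fold step on TMM-scaled counts was tried on simulated data, with Poisson counts and no sharing of reads between transcripts. The ratios of deposited TPM were not simulated, so that trial says nothing on them. Python 3.11.15, pandas 2.3.3 and numpy 2.4.6 were used. Replicates are labelled as pools, so the spread is that of 2 pools, which also differed in Xist and Y-linked genes as given above. Alternatives were other thresholds, units, pseudocounts, scalings, intron sets and each library alone.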

Additional observations from a re-analysis of the deposited data

How the results depend on the processing

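The count of 6650 members was between 4906 and 8337 at thresholds of 2 and 0.5 TPM, by FPKM, by expected count, by the deposited interval or with one model in both annotations, and 6990 to 7274 with either library alone, but 2623 at 5 TPM. The median percent of the host gene was 9.32 at 2 TPM, 3.07 by expected counts and 8.20 by mm9 RPKM, against 7.68, and 7.39 to 7.78 with either library alone. Genes led by a retained-intron transcript numbered 237 by expected count and 536 by summed TPM of the types, against 356, and 423 to 430 with either library alone. Members at least 2-fold apart numbered 71 with a pseudocount of 1 TPM and 112 with at least 50 expected counts in both, against 170. With TMM-scaled CPM, 108 were lower and 59 higher, in place of 122 and 48. The median log2 ratio kept its sign, at -0.02 to -0.05; under TMM-scaled CPM it was -0.02 beside 0.03 over all transcripts of at least 1 TPM. The median intron length (218 to 244) and GC (52.2% to 53.3%) and the mm9 cover (3040 at 90%) stayed near their values. Of 34 alternatives, 9 moved a value past its spread or 1.5 times the count. Only the median log2 ratio could reverse its sign, and it did not. For that ratio, intron length and GC, the spread was that of single transcripts or introns (0.207, 213 nucleotides and 5.75 points). It is wide for a median, so staying within it says little. The alternatives on the M21 model, the interval, mm9 RPKM and introns of at least 30 nucleotides were chosen after seeing the data.

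No paired analysis was possible because both libraries belong to 1 group. The difference between the libraries was larger in members with low counts and in those with few bases outside coding exons, and its cause was not tested. A single group gives no p-value.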
